A study of Drosophila melanogaster with 3 samples.

Results

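Chro, BEAF-32, Dref, CTCF, Cp190, su(Hw), mod(mdg4) and pzg encode insulator and chromatin architecture proteins of Drosophila melanogaster, and pb-GFP binding at these 8 genes was read from deposited chromatin immunoprecipitation sequencing (ChIP-seq) peaks. The 8 genes were grouped by their function, out of 13945 protein-coding genes on 6 chromosome arms, with the small dot chromosome counted as 1 of them. They were proposed with earlier results of these data known. A listed region was given to a gene when its summit lay inside the gene body or when that gene had the nearest protein-coding start site. The embryos came from 1 transgenic line that stably expresses pb with GFP fused to its C terminus, where pb is the Hox gene proboscipedia. Whole embryos of mixed sex, aged 0 to 24 h, were used, their chromatin was sonicated to 200 to 800 bp, and DNA bound by the fusion was pulled down with an anti-GFP antibody. There were 3 biological replicates of 1 group, and no other genotype, treatment, untagged line or control library was analysed here, so no value below compares conditions. The labels do not say what drives the fusion gene, and whole embryos mix all cell types, so weak binding in many cells and strong binding in few cells cannot be told apart. Peak lists hold no expression values, so the labelled tissue could not be checked against marker genes.

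The genes lie on 4 chromosome arms of build dm6. On the minus strand are Chro at chr3L:22873702-22878984, Dref at chr2L:9964147-9967229, CTCF at chr3L:7353578-7356713, Cp190 at chr3R:15270432-15275241, su(Hw) at chr3R:14304455-14308589 and mod(mdg4) at chr3R:21350846-21377401. On the plus strand are BEAF-32 at chr2R:14770469-14772630 and pzg at chr3L:21286099-21290310. Gene bodies span 2162 bp for BEAF-32 to 5283 bp for Chro, apart from mod(mdg4), which spans 26556 bp and has 22 annotated transcripts from 1 start site. Another gene starts divergently within 1000 bp upstream of 5 of the 8, against 35.2% of all protein-coding genes. These head-to-head pairs are Dref with RpL13 at 84 bp, Chro with Ssl1 at 105 bp, pzg with CG12974 at 137 bp, Cp190 with CG4338 at 281 bp and su(Hw) with Polr2I at 500 bp.

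Insulators are DNA elements that limit contact between enhancers and promoters or stop the spread of chromatin states. In flies, DNA-binding proteins such as su(Hw), CTCF and BEAF-32 mark them and recruit the shared cofactor Cp190 and the BTB domain protein mod(mdg4). Dref binds the DNA replication-related element (DRE) at promoters of growth and replication genes, BEAF-32 recognises clusters of a shorter core that the DRE contains, and the zinc finger protein pzg and the chromodomain protein Chro act together at decondensed chromatin such as the interbands of polytene chromosomes. pb is a homeodomain transcription factor of the Antennapedia complex.

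The sequences below are the Release 6 (dm6) reference from RefSeq, written 5′ to 3′ on the minus strand, which is the coding strand of the genes they are named after. The first is shown because the strongest summit of the 8 genes falls in it. It covers chr3L:22878882-22878910 in the 5′ UTR of Chro, and its capitals mark TATCG, the reverse complement of CGATA, the BEAF-32 core. The second is the whole interval between the start sites of Chro and Ssl1, chr3L:22878985-22879088, which the same peak covers except for the 4 bases next to Ssl1. The third covers chr3R:15275232-15275419 at the Cp190 start, and its capitals mark the DRE (TATCGATA, which overlaps 2 copies of the BEAF-32 core) and a further core. The fourth, chr3L:7356450-7356590, is the first intron of CTCF with 10 exonic bases on either side, with the core in capitals. The fifth, chr3R:21365479-21365618, lies inside mod(mdg4) at the divergent start sites of the pre-mod(mdg4) units and holds none of the motifs searched. The sixth, chr3R:21376334-21376534, lies in an intron near the mod(mdg4) start, and its capitals mark overlapping GAGAG matches.
Chro summit: agttagtttaaagcTATCGacaggcaata
Chro to Ssl1: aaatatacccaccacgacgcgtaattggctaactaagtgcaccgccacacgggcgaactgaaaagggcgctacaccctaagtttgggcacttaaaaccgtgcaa
Cp190 peak: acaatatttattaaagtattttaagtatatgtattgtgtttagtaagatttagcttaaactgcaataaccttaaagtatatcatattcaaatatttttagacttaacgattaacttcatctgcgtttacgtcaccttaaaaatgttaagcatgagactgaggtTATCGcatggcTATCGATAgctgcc
CTCF intron: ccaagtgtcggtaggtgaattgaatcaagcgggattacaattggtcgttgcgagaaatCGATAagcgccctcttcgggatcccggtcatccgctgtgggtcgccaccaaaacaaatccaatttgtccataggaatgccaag
pre-mod(mdg4)-E peak: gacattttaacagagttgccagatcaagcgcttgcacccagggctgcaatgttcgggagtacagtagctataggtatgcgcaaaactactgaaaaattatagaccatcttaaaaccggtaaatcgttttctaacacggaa
mod(mdg4) intron peak: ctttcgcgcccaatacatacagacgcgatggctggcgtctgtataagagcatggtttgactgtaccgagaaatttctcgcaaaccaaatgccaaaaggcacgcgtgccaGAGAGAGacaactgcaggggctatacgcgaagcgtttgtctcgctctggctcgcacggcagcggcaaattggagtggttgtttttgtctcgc

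The next set shows upstream stretches of members whose promoter holds a motif. The Dref to RpL13 interval, chr2L:9967230-9967312, is shown with its BEAF-32 core in capitals because a strong peak of RpL13 has its summit in it. The 80 bases before the CTCF start, chr3L:7356714-7356793, and before the mod(mdg4) start, chr3R:21377402-21377481, are shown with their DRE in capitals. The mod(mdg4) stretch also has a core outside the DRE that is left in lower case.
Dref to RpL13: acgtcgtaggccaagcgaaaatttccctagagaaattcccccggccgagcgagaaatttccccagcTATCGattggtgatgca
CTCF upstream: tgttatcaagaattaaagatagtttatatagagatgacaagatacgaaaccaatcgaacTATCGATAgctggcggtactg
mod(mdg4) upstream: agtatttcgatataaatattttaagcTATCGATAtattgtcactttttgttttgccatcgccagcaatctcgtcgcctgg

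Each library was represented by the 30000 strongest peaks and background regions that the authors listed for it, and a list called on all 3 libraries together held 30000 more. The thresholded list of the authors is exactly the strongest part of the combined list by the authors' signal value, down to a signal of 112.94. In each library the same number of strongest regions is called its top set below. Read depth is unknown and no source used here gives the statistic behind the signal value, so a peak's rank within its own list (1 is strongest) is the measure compared. Of the thresholded peaks, 2421 had a summit within 100 bp in all 3 replicate lists. Their highest rank number was a median of 2.52 times their lowest (quartiles 1.77 and 4.07), and their summits ranged over a median of 43 bp. Replicates are named as the labels number them, and nothing further is given on how the biological replicates were collected.

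pb-GFP peaks lay at 4 of the 8 genes, Chro, CTCF, Cp190 and mod(mdg4). These 4 had the start site nearest to a thresholded summit (50%, exact 95% interval 15.7% to 84.3%), against 2047 of the 13945 genes (14.7%). A thresholded summit lay in the gene body of Chro, CTCF and mod(mdg4), 3 of 8, against 9.02% of all genes. By either criterion the count was 4 of 8, against 16.1%. When each gene with a start site within 1000 bp of a summit was counted, so that both genes of a head-to-head pair count, Dref and pzg joined them and the count was 6 of 8 (75%, exact 95% interval 34.9% to 96.8%), against 15.3%. Within 200 bp it was 5 of 8 (Chro, Dref, CTCF, Cp190 and pzg; 62.5%, exact 95% interval 24.5% to 91.5%), against 9.57%. The intervals treat genes as separate draws and cover counting error only, and no test was made because the genes were proposed with results of these data known. BEAF-32 and su(Hw) had no thresholded peak by any of these criteria.

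The genes among the top peaks of a single library differed between libraries. Replicate 1 had 4 of the 8 nearest to a peak of its top set (Chro, BEAF-32, CTCF and mod(mdg4)), against 14.8% of all genes. Replicate 2 had 3 (Chro, CTCF and Cp190), against 14.4%, and replicate 3 had 3 (Chro, Cp190 and mod(mdg4)), against 14.5%. Chro alone was in all 3 sets, 1 of 8 (12.5%, exact 95% interval 0.316% to 52.7%), against 8.72% of all genes. Of the 5 thresholded peaks at these genes, 2 were in the top set of every library, the Chro peak and the one at the pre-mod(mdg4)-E start, against 1280 (46.7%) of all thresholded peaks.

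**Figure D1:**
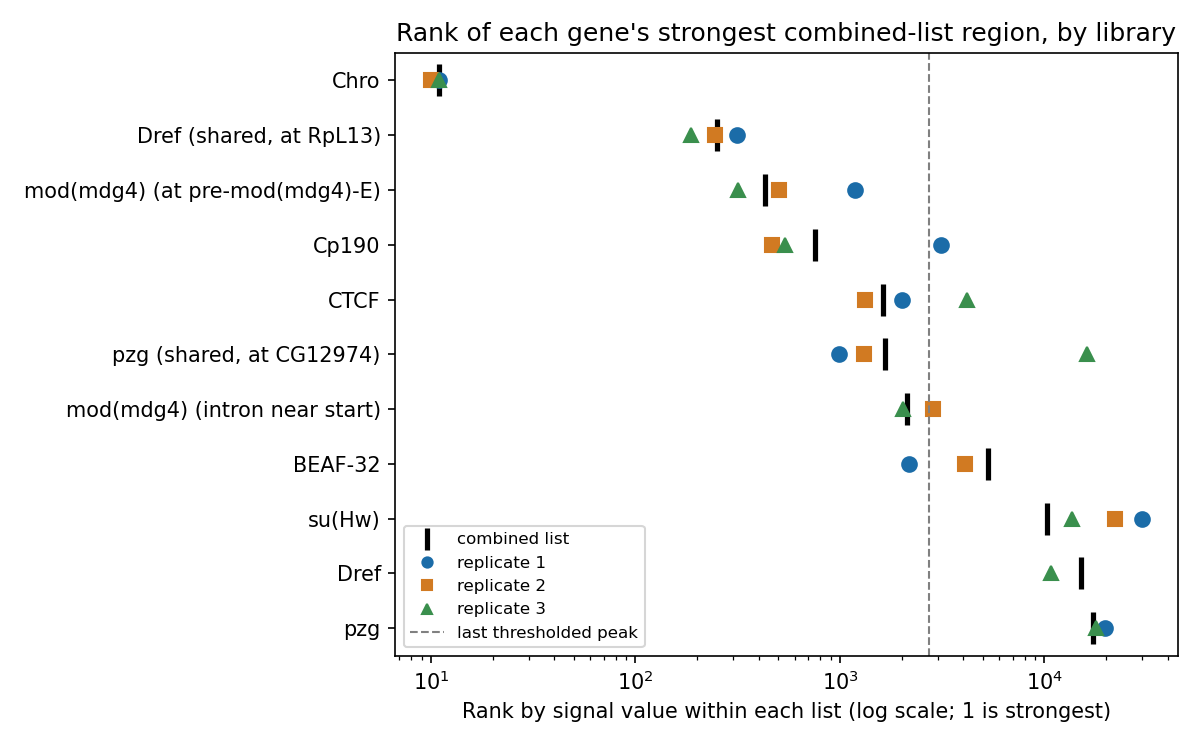
Rank of the strongest region of each gene in the combined list (black bars) and rank of the region matched to it within 100 bp in each replicate list (coloured points), on a log scale where 1 is strongest; the dashed line is the rank of the last thresholded peak, and a missing point means no matched region. The 2 rows marked as shared are peaks assigned to a divergent neighbour. The points of Chro lie at ranks 10 and 11 in every library. Those of Cp190, CTCF, the mod(mdg4) intron peak, BEAF-32 and the shared pzg peak fall on both sides of the line.

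Chro had the strongest pb-GFP peak of the 8 genes, and it was among the strongest of all listed peaks. Chro is a chromodomain protein that also joins the spindle matrix in mitosis. The peak spanned chr3L:22878712-22879084, 373 bp, and ranked 11 of 30000 in the combined list with a signal value of 1302. In the replicate lists it ranked 11, 10 and 11, with signal values of 394, 522 and 387 in replicates 1, 2 and 3. The rank therefore differed by 1 between the libraries, a mean of 10.7 ± 0.577 (SD, n = 3). The highest rank number was 1.1 times the lowest, below the lower quartile of all matched peaks. That quartile covers thresholded peaks of every rank, and no quartile was taken over peaks as strong as this one. The summit lay 88 bp downstream of the outermost Chro start site in the combined list, and 105, 88 and 86 bp downstream in replicates 1, 2 and 3 (mean 93.0 ± 10.4 bp, SD, n = 3).

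Only 1 annotated Chro transcript begins at that outermost start, with the summit in its 5′ UTR. The start used by 3 transcripts lies further in, so that the summit is at -128 bp from it, and the innermost start, of 1 transcript, has the summit at -712 bp. The BEAF-32 core printed in capitals above has its centre 2 bp from the summit. The peak reaches into the interval shared with Ssl1, a divergent gene for a subunit of the general transcription factor TFIIH, and no thresholded peak had Ssl1 as its nearest gene. In replicates 1 and 2 no other region was listed for Chro, and replicate 3 had 2 more, at ranks 18626 and 23579.

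The genes whose best peak resembled that of Chro most closely across the 3 libraries were mRpL41, CG1888 and ph-p. Likeness was the Euclidean distance between log2 ranks over the 3 libraries, and was 0.43 for mRpL41, 0.77 for CG1888 and 0.79 for ph-p. The peak of mRpL41, a mitochondrial ribosomal protein gene, ranked 9, 11 and 9 with its summit at -130 bp. That of CG1888 ranked 7, 8 and 13 at -223 bp, and that of ph-p, a Polycomb group gene, ranked 17, 9 and 15 at -487 bp. Since few peaks rank so high, nearness of rank to Chro describes height in these lists alone.

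Among peaks assigned to the 8 genes, mod(mdg4) carried the next strongest, deep inside the gene and not at its own start. A stronger peak near Dref is assigned to its neighbour RpL13 and is described below. mod(mdg4) makes many protein isoforms by joining a shared 5′ part to alternative 3′ exons from separate transcripts, in trans. The annotation holds the precursors of those 3′ parts as 23 pre-mod(mdg4) units, 14 on the strand of mod(mdg4) and 9 on the other. The peak at chr3R:21365324-21365733 ranked 431 in the combined list, with a signal value of 292. Its summit was 11872 bp downstream of the mod(mdg4) start, in an intron of 10067 bp. It fell in the 121 bp between a start site of pre-mod(mdg4)-E and the start site that 7 units on the other strand share, 41 bp from the first and 80 bp from the other, and 10 units in all start within 1000 bp of it. By nearest start site the peak therefore belongs to pre-mod(mdg4)-E, and it counts for mod(mdg4) by gene body.

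The pre-mod(mdg4)-E peak was in the top set of every library, but its height varied. It ranked 1188, 503 and 316 in replicates 1, 2 and 3, with signal values of 58.2, 109 and 106. Replicate 1 had the weakest of these. The mean rank was 669 ± 459 (SD, n = 3), with the highest rank number 3.76 times the lowest. Its summit held its place, at -44, -30 and -12 bp from the pre-mod(mdg4)-E start (mean -28.7 ± 16.0 bp, SD, n = 3).

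At the 5′ end of mod(mdg4) the listed regions were weaker and spread over several summits. The thresholded peak there, chr3R:21376229-21376638, ranked 2135 with a signal value of 129, and its summit lay 967 bp downstream of the start in an intron of 689 bp. It was matched in replicate 2 at rank 2842 (927 bp, signal value 43.4) and in replicate 3 at rank 2031 (1004 bp, signal value 45.8), and replicate 1 listed no summit within 100 bp. A second summit of the combined list lay 231 bp away, 736 bp downstream of the start, at rank 2955 and so outside the thresholded list. Replicate 1 listed only that one (735 bp, rank 2117), replicate 3 listed both (765 bp, rank 2216), and replicate 2 only the further one. At the start site itself the combined list had a region at 17 bp with rank 6289, replicates 2 and 3 each had one at -3 bp with ranks 4261 and 6278, and replicate 1 had none there.

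**Figure D2:**
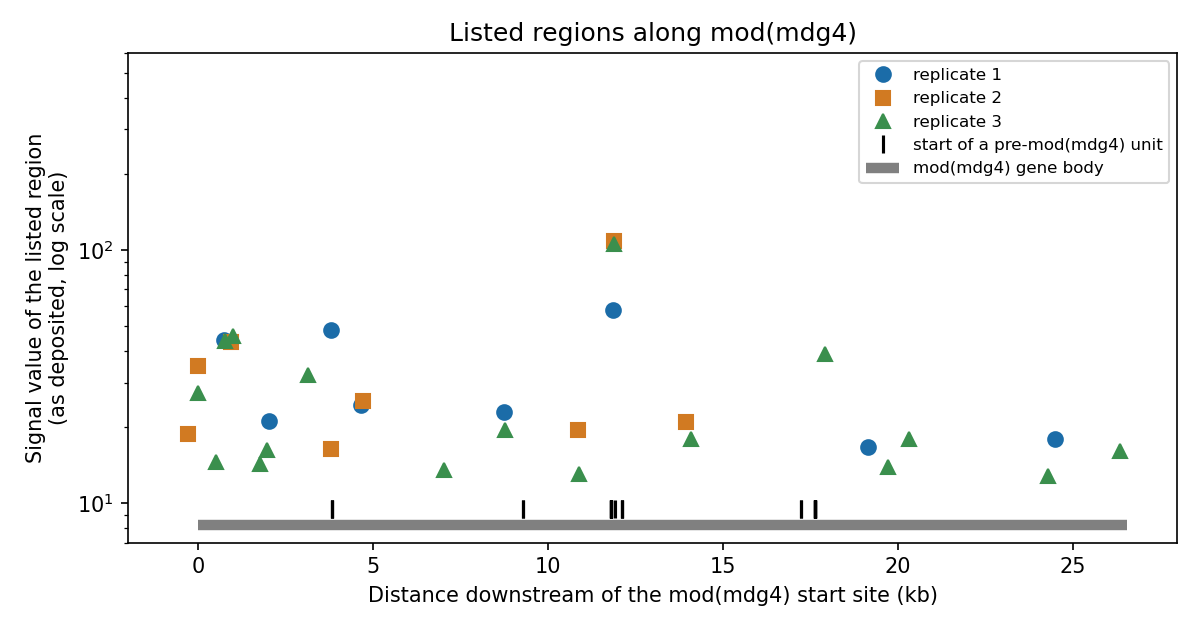
Signal value as deposited (log scale) of every region listed for mod(mdg4) in the 3 replicate lists, against its distance downstream of the mod(mdg4) start in kb; the grey bar is the gene body and ticks are start sites of pre-mod(mdg4) units. Signal values are comparable within a library only. The highest point of each library stands at the divergent pre-mod(mdg4) starts 11792 and 11913 bp into the gene, at 58.2, 109 and 106 in replicates 1 to 3.

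Further pre-mod(mdg4) starts carried regions that ranked much higher in 1 library than in the combined list. In replicate 1 a region ranked 1703 at -36 bp from the common start of units AA, N and O, 3826 bp into the gene. That region was in the top set of replicate 1. One at the same position ranked 19381 in replicate 2, replicate 3 listed none there, and the combined list had rank 6167. In replicate 3 a region lay 292 bp downstream of the start shared by unit B and 7 others, 17633 bp into the gene. It ranked 2882, outside the top set, and the combined list had rank 26673 there (257 bp). Replicates 1 and 2 listed no region at that place. With the pre-mod(mdg4) units left out as genes, the 8 genes still had 4 members with a nearest thresholded summit, and 5 peaks in place of 4.

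Cp190, the cofactor that several insulator proteins recruit, had a promoter peak in all 3 libraries whose strength in replicate 1 stood apart. The peak at chr3R:15275114-15275523 ranked 758 in the combined list, with a signal value of 229. It ranked 3103, 465 and 538 in replicates 1, 2 and 3, with signal values of 38.1, 113 and 83.2. Replicates 2 and 3 were close to each other, and replicate 1 had it outside the top set. The mean rank was 1369 ± 1502 (SD, n = 3), with the highest rank number 6.67 times the lowest, above the upper quartile of all matched peaks. The summit also lay elsewhere in replicate 1, at 8 bp from the start site, against -78 bp in replicate 2 and -91 bp in replicate 3 (mean -53.7 ± 53.8 bp, SD, n = 3). In the combined list it was at -78 bp, outside the gene, toward CG4338, which had no thresholded peak of its own. The DRE printed above straddles the annotated start, with its centre at -0.5 bp from it and 77.5 bp from the combined summit.

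CTCF, the zinc finger protein whose vertebrate counterpart organises chromatin loops, had a peak in its first intron. The peak at chr3L:7356328-7356737 ranked 1629 with a signal value of 151, and its summit lay 180 bp downstream of the single start site, in an intron of 121 bp (chr3L:7356460-7356580). It ranked 2008, 1326 and 4176 in replicates 1, 2 and 3, with signal values of 45.3, 66.5 and 33.1, so that replicate 3 was the weakest and had it outside the top set. The mean rank was 2503 ± 1488 (SD, n = 3). Its summits lay 161, 180 and 254 bp downstream of the start (mean 198 ± 49.1 bp, SD, n = 3). The BEAF-32 core printed above has its centre 3 bp from the combined summit. CTCF has no divergent neighbour, and the nearest other start site, of pst, is 3403 bp away.

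**Figure D3:**
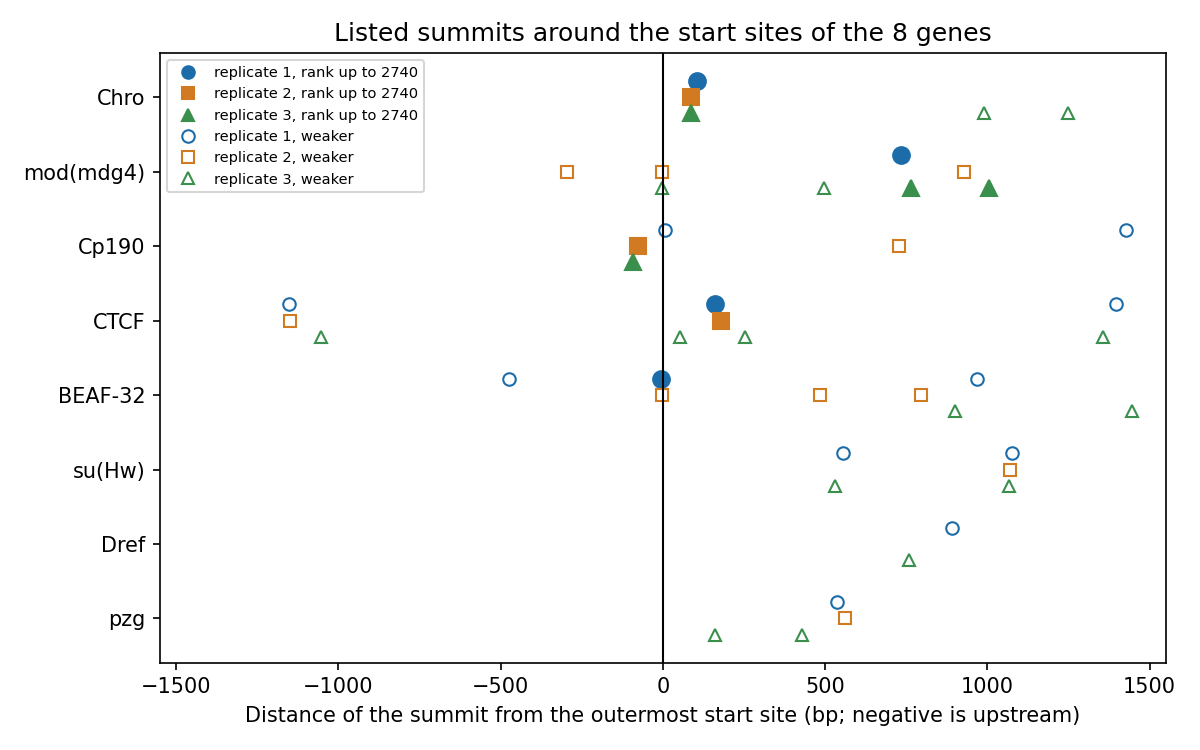
Distance of each summit assigned to a gene from its outermost start site (bp, negative is upstream), within 1500 bp, for the 3 replicate lists, where summits assigned to a divergent neighbour (the shared peaks at RpL13 and CG12974) are not shown; filled points are in the top set of their library and open points are weaker. Filled points of all 3 libraries stand together at 86 to 105 bp for Chro, while su(Hw), Dref and pzg have open points only.

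Dref and pzg had thresholded pb-GFP peaks at their promoters that by distance belong to the divergent neighbour, and only the one at Dref was strong in every library. These neighbours were named after their values were seen. The peak between Dref and RpL13, a ribosomal protein gene, at chr2L:9967204-9967405 ranked 250 with a signal value of 379.8, the second strongest near any of the 8 genes. It ranked 313, 245 and 186 in replicates 1, 2 and 3. Its summit was at -12 bp from the RpL13 start and -72 bp from the Dref start, and both distances are shorter than the sheared fragments. The peak between pzg and CG12974 at chr3L:21285776-21286185 ranked 1668 with a signal value of 148, with its summit at -19 bp from the CG12974 start and -118 bp from the pzg start. It ranked 987 and 1317 in replicates 1 and 2, and 16218 in replicate 3. Replicate 3 thus lacked it among its stronger peaks.

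No region assigned to Dref or pzg themselves was in the top set of any library. The strongest of Dref in the combined list ranked 15012 with a summit in a coding exon 759 bp from the start. Replicate 3 had it at rank 10735, replicate 2 listed no region for Dref, and the best region of replicate 1 was another, at rank 10052. The strongest of pzg ranked 17262, also in a coding exon, 449 bp from the start, with matched ranks of 19720 and 17910 in replicates 1 and 3. The best pzg region of each library was another one, at rank 6800 in replicate 1 (2162 bp from the start, signal value 29.1, against a list median of 22.01), rank 11343 in replicate 2 (561 bp) and rank 12476 in replicate 3 (161 bp). The combined list's median signal was 48.4, the same to 3 digits as the strongest Dref region, and the lists include background regions, so these are given as values and not as binding.

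BEAF-32 had a start-site region that stayed below the threshold. Its strongest combined region, at chr2R:14770269-14770678, ranked 5284 with a signal value of 79.8 and a −log10 q of 1.56, and the summit lay 5 bp from the outermost start in the 5′ UTR. It was matched at rank 2177 in replicate 1 (signal value 43.7, -7 bp) and at rank 4075 in replicate 2 (signal value 35.6, -4 bp), and not in replicate 3. Replicate 1 therefore placed it in its top set. In replicate 3 the best BEAF-32 region was at rank 3771, 614 bp downstream of the nearest start. BEAF-32 has 3 start sites and 9 regions in the combined list, and its upstream neighbour Spred, at 1046 bp, had no thresholded peak.

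su(Hw), the zinc finger protein that binds the insulator of the gypsy retrotransposon, had no region in the top set of any library. Its strongest combined region ranked 10295, with a signal value of 57.8, in a coding exon 1068 bp from the start. In replicates 1, 2 and 3 that region ranked 29971, 22085 and 13560 (mean 21872 ± 8208, SD, n = 3). The best su(Hw) regions of replicates 1 and 3 were others, at ranks 14821 and 12107, 556 and 530 bp from the start. The divergent gene Polr2I, which encodes a subunit of RNA polymerase II, had no thresholded peak either.

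The order of the genes by strength held in part across libraries. The Chro peak was stronger than the pre-mod(mdg4)-E, Cp190 and CTCF peaks in 3 of 3 libraries. The pre-mod(mdg4)-E peak was stronger than the Cp190 peak in 2 of 3, and the Cp190 peak was stronger than the CTCF peak in 2 of 3. The CTCF peak was stronger than the mod(mdg4) intron peak in 1 of the 2 libraries that listed both. The mod(mdg4) intron peak was stronger than the BEAF-32 region in the 1 library that listed both. The BEAF-32 region was stronger than the su(Hw) region in the 2 libraries that listed both. The su(Hw) region was weaker than the Dref region in the 1 library that listed both, and stronger than the pzg region in 1 of 2. From the pre-mod(mdg4)-E peak down to the mod(mdg4) intron peak, neighbours in this order thus did not differ beyond the spread between libraries. Below it, neighbours were listed together in at most 2 libraries, which is too few to set them apart. Genes further apart differed in some cases. The pre-mod(mdg4)-E peak was stronger than the CTCF peak in 3 of 3 libraries. The pre-mod(mdg4)-E, Cp190 and CTCF peaks were each stronger than the su(Hw) region in 3 of 3. The BEAF-32 region was weaker than the CTCF peak in 2 of 2 libraries that listed both, but weaker than the Cp190 peak in only 1 of 2. In replicate 1 the BEAF-32 region ranked 2177 and the Cp190 peak 3103.

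Sequence motifs of insulator proteins were counted on both strands within 100 bp of the summits and in promoters from 250 bp before to 50 bp after the outermost start. The DRE, TATCGATA, was at 1 of the 5 member peaks (Cp190), against 4.42% of all thresholded peaks. It was in 4 of the 8 member promoters, against 9.36% of all promoters. Those 4 were BEAF-32, CTCF, Cp190 and mod(mdg4), with DRE centres at -206.5, -17.5, -0.5 and -50.5 bp from the start. The BEAF-32 core CGATA, which the DRE contains, was at 3 of 5 member peaks (Chro, Cp190 and CTCF), against 30.0% of all peaks, and in 6 of 8 member promoters, against 47.4%. Chro and su(Hw) were the 2 promoters without it.

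The other 6 motifs were counted in the same way. GAGAG, bound by the GAGA factor, was at 1 of 5 member peaks (the mod(mdg4) intron peak, overlapping matches centred 11 and 13 bp from the summit), against 28.9%, and in 0 of 8 member promoters, against 29.7%. AGGNGGC, a CTCF core, was at 0 of 5 peaks, against 7.08%, and in 0 of 8 promoters, against 8.3%. TGCATA, a su(Hw) core, was at 1 of 5 peaks (the pre-mod(mdg4)-E peak, overlapping matches centred 93.5 and 95.5 bp from the summit, beyond the printed stretch), against 13.5%, and in 0 of 8 promoters, against 15.4%. GGTCACA, the core of the promoter factor M1BP, was at 0 of 5 peaks, against 3.61%, and in 1 of 8 promoters (su(Hw)), against 9.7%. TAATTA, a homeodomain core, was at 0 of 5 peaks, against 12.3%, and in 3 of 8 promoters (su(Hw), mod(mdg4) and pzg), against 20.4%. TGATNNAT, a joint site of Hox proteins with their cofactor Exd, was at 0 of 5 peaks, against 10.9%, and in 0 of 8 promoters, against 18.7%. A match is a run of letters in the reference and not a mapped binding site. The GC content within 100 bp of the summit was 38.3% for Chro, 41.3% for the pre-mod(mdg4)-E peak, 31.8% for Cp190, 47.8% for CTCF and 53.2% for the mod(mdg4) intron peak, against a median of 39.3% (quartiles 34.8% and 45.8%) over all thresholded peaks.

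Among 49 other genes of insulators and chromatin architecture, the share with the start site nearest to a pb-GFP peak was close to that of all genes at the authors' threshold. It was above that of all genes in a longer list. The counts by subgroup below also use the nearest start site and not the gene body. A thresholded summit was nearest to 7 of the 49 (14.3%), against 14.7% of all genes, with 10 peaks, and 5 of the 7 were nearest to a top-set peak in all 3 libraries. With the 5000 highest ranked regions of the combined list it was 19 of the 49 (38.8%), against 23% of all genes. No test was made of either difference. Of 11 further DNA-binding insulator and boundary genes, 1 had such a peak, Trl, which encodes the GAGA factor. Its best peak ranked 201 with its summit at 167 bp, and ranked 132, 195 and 549 in replicates 1, 2 and 3. The best Trl region of replicate 3 was another, at rank 34. In the gene body of Trl lay 2 thresholded summits.

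Of 8 genes for partners of Chro, pzg and Dref, 2 had the start site nearest to a thresholded peak. JIL-1, the histone H3 kinase that works with Chro at interbands, had 4, the best at rank 152 (205, 137 and 155 in the 3 libraries, mean 166 ± 35.2, SD, n = 3), 7093 bp from the start. E(bx), the large subunit of the NURF remodeller, had 1 at rank 1725 and -73 bp (981, 1833 and 5038). Of 5 genes for partners of su(Hw), mod(mdg4) and Cp190, 1 had a peak, the BTB zinc finger repressor ttk, at rank 1297 and 3556 bp (1348, 1361 and 1872).

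Of 8 condensin and topoisomerase genes, 3 had a peak. SMC2, a condensin ATPase, had it at rank 827 and -118 bp (1743, 627 and 730 in replicates 1, 2 and 3). Top2, the DNA topoisomerase that associates with insulator complexes, had it at rank 1704 and -59 bp (1088, 2289 and 2322). Cap-D2, another condensin subunit, had it at rank 1944 and -45 bp (2524 and 1392, with no match in replicate 3). None of 11 cohesin genes and none of 6 nuclear lamina genes had a nearest thresholded summit. The cohesin regulator pds5 and the condensin gene Cap-H2 start within 1000 bp of a thresholded summit that was nearer to another gene.

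**Figure D4:**
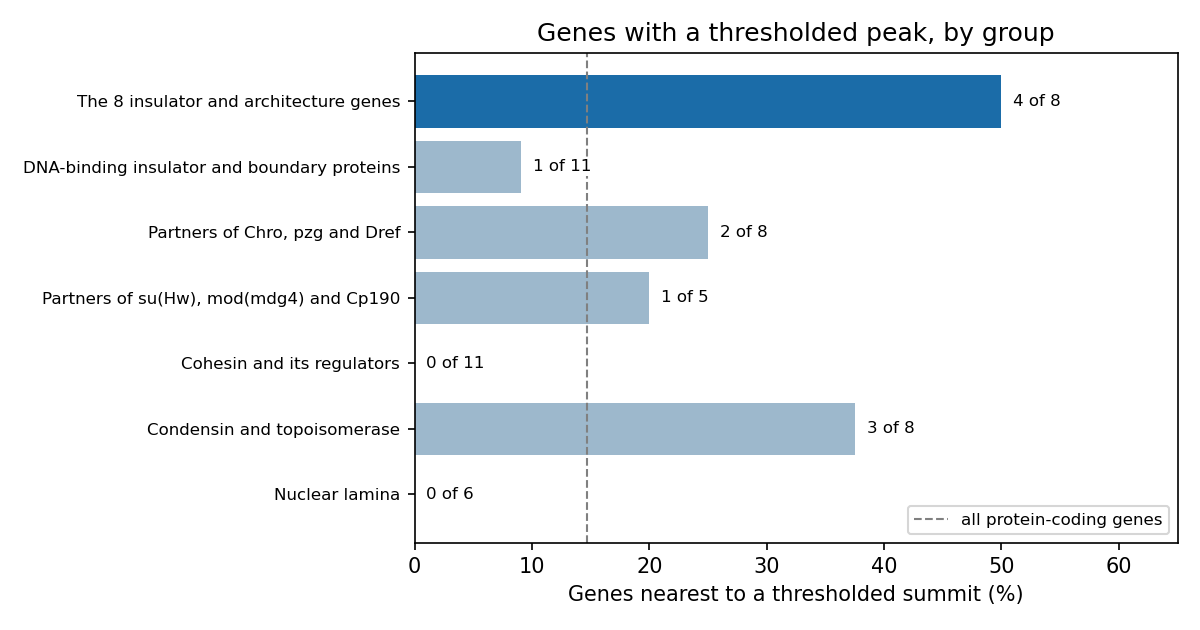
Share of genes (%) with the start site nearest to a thresholded summit, for the 8 genes and for 6 subgroups of 49 other architecture genes, with the counts beside the bars; the dashed line is the share of all protein-coding genes, 14.7%. The 8 genes stand at 4 of 8, cohesin and nuclear lamina genes at 0 of 11 and 0 of 6.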

How the data were processed

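Peak lists in narrowPeak format on dm6 were used. Per the deposited notes, a replicate list came from the alignments of 1 replicate and 1 further file, and the combined list from all 3 replicates. The deposited signal value is the authors' own, and it served to rank regions within a list. The deposited −log10 q was used as a description, and the summit is the deposited start plus the deposited summit offset (bp). The sources used here name no aligner, peak caller, version or normalization. The dm3 lists, signal tracks and reads were not used here.

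Summits were assigned with the Ensembl release 115 annotation (FlyBase 6.54), by gene body and by nearest start site of any transcript of a protein-coding gene. Regions were matched between lists within 100 bp. Shares have exact (Clopper-Pearson) 95% intervals. There is 1 group, so no test and no paired analysis was made. The assignment was checked on simulated peaks. Python 3.11.15, numpy 2.4.6, pandas 2.3.3, scipy 1.17.1 and matplotlib 3.10.9 were used.

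Named genes were the 8 members, genes that start within 1000 bp of their thresholded summits, up to 4 best ranked genes with a peak of each of 6 subgroups, and the 3 genes most like Chro. Outside that rule, RpL13, CG12974, Spred, Polr2I and pst were named as nearest neighbours of members, and further pre-mod(mdg4) units as starts inside mod(mdg4). Mi-2, pds5 and Cap-H2 were named because a thresholded summit lies in them or within 1000 bp of their start but is nearer to another start. Members, lists and motifs were chosen with earlier results of these data known. Alternatives were other thresholds, assignments, start sites, windows and match distances, and leaving out each replicate. Leaving out the pre-mod(mdg4) units was added after seeing the data.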

Additional observations from a re-analysis of the deposited data

How the results depend on the processing

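The counts at the 8 genes depended on the threshold and on the libraries. Among the stronger 50% of the thresholded peaks, 2 genes (Chro and Cp190) in place of 4 were nearest to a peak, 2 peaks were nearest to one of the genes and 2 genes had a summit within 1000 bp, against 8.16% of all genes with a nearest peak. A replicate was left out by keeping thresholded peaks in the top sets of both other libraries, which leaves 1454 to 1624 peaks, and each of these 3 counts then ranged from 1 to 2. Without replicate 1 the genes with a nearest peak were Chro and Cp190, against 9.51% of all genes. Without replicate 2 it was Chro alone, against 8.8%, and without replicate 3 Chro and CTCF, against 9.62%. For the count within 1000 bp, the share of all genes is not given under these settings. The smaller sets hold fewer peaks by construction. The count of genes nearest to a top peak of all 3 libraries, 1, was 5 with the 5000 highest ranked peaks of each library and 2 when any replicate was left out. These settings admit more genes by construction. The share of all genes, 8.72% in the main setting, is not given under them, so the larger counts cannot be set against it. Of the 49 architecture genes, 7 had a nearest peak (14.3%, against 14.7% of all genes). By gene body the count was 4 (8.16%, against 9.02%). By nearest start site it was 4 among the stronger 50% of peaks (8.16%, against 8.16%) and 19 among the 5000 strongest of the combined list (38.8%, against 23%). The 8 genes had 4 in that longer list too. The DRE was at 0 of the 5 member peaks with a window of 50 bp in place of 1 of 5. Counts of genes with a summit in the gene body stayed within 1.5 times their main value under every alternative run. No paired analysis was possible because the 3 libraries form 1 group. Unknown read depth limits what the absence of a listed region shows.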
